A study of Mus musculus with 8 samples.

Results

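Cytosolic ribosomal proteins are the protein components of the large (60S) and small (40S) subunits of the ribosome that translates nuclear mRNAs. Their genes were taken by name: a probe set entered when its annotated symbol was Rpl or Rps followed by a number (with the usual a, x, y or l endings), Rplp0, Rplp1, Rplp2 or Rpsa. Probe sets annotated with several genes were left out, and each gene was represented by the probe set with the highest mean signal over the 8 arrays. This gave 47 of the 18193 genes tested, 24 of the large and 23 of the small subunit. The probe sets were picked by names and overall brightness, not by any difference between groups. The gene family itself was chosen with earlier results of these data known.

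The arrays measured RNA of mouse DN3 cells, early T cell precursors without CD44 and with CD25, sorted after culture of lineage-depleted thymocytes on OP9 DL1 stroma, a layer that displays a Notch ligand. Cells of 2 genotypes, WT and IkL/L, were each given the gamma-secretase inhibitor MRK-003 (GSI) or its vehicle DMSO, with 2 arrays for each of the 4 groups. Exposure lasted 16 h, at a dose that the labels give as 5 mM, and every group shared the same culture and sort. The title of the series calls the mutant cells Ikaros-deficient, Ikaros being the zinc finger transcription factor encoded by Ikzf1, and gamma-secretase is the enzyme that cuts activated Notch receptors so that their inner part can enter the nucleus. The series asks which genes respond to GSI in each genotype. Nothing in the labels says whether replicates came from separate mice or cultures, so the p-values reflect no more than sample-to-sample spread, part or all of it possibly technical.

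Ribosomal protein genes belong to the most highly expressed genes of growing cells, and their products are needed in equal numbers because each subunit holds a single copy of nearly every one. Many of their mRNAs begin with a run of pyrimidines, the 5′ terminal oligopyrimidine (TOP) motif, through which the kinase mTOR and the protein LARP1 control their translation, so that output can change with little change of the mRNA. In thymocytes the passage through the DN3 stage is a growth step, and in mice loss of Rpl22 blocks the development of αβ T cells at about this point.

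The start sites of 8 genes are shown for the pyrimidine run that the family is known for. Each line gives the bases from 10 before to 20 after the RefSeq start on GRCm38.p6, 5′ to 3′ on the transcribed strand, with the longest run of C and T of at least 5 bases in capitals. The first 5 genes are ones whose probe set moved with GSI, and the last 3 are ones whose probe set did not pass.
Rpl14, chr9:120571507-120571536 (+): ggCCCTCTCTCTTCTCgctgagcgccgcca
Rpl12, chr2:32961702-32961731 (+): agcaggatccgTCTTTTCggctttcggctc
Rps6, chr4:86857348-86857377 (-): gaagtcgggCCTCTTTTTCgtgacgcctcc
Rps27, chr3:90213629-90213658 (-): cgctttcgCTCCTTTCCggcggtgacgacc
Rps25, chr9:44407704-44407733 (+): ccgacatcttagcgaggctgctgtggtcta
Rplp2, chr7:141447641-141447670 (+): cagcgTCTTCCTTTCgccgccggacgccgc
Rps10, chr17:27635225-27635254 (-): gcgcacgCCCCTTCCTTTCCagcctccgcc
Rpl35, chr2:39005112-39005141 (-): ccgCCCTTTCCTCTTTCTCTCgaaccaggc

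Runs stood in genes that moved (Rpl14, Rpl12, Rps6, Rps27) and in genes that did not pass (Rplp2, Rps10, Rpl35), and the window of Rps25 held no run of that length. The 8 genes are examples. Among those not shown, the windows of Rpl37a and Rpl41, which moved, held no such run. Nor did those of Rps3, Rps28 and Rps4x, which did not pass. RefSeq promoters were at hand for 41 of the 47 genes, and Rps14, Rps20, Rps29, Rpl7, Rps4l and Rpl8 had no entry. Of the 41 genes, 31 held such a run somewhere in the window of a listed start, as far along as position 14 in Rpl11. The share of all genes with such a run was not counted, so 31 is no count of TOP motifs. In the window printed above, CTTTC on the transcribed strand was found in 11 of the 41 genes (26.83%) and in 4.43% of 27025 mouse genes. With CTTCC admitted as well, which overlaps the reverse complement of the ETS motif CCGGAAG, the shares were 34.15% (14 of 41) and 11.47%. CCGGAAG itself, searched on both strands from 250 bases before to 50 after the start, was found in 21 of 41 genes (51.22%) against 9.93% of all genes. The E-box CACGTG, the core letters bound by Myc, was found in 4 of 41 (9.76%), namely Rpl13a, Rpl14, Rpl19 and Rps19, against 8.09% of all genes. A match describes letters in a window and shows no binding.

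The arrays were first checked against their labels. The log2 signal of Ikzf1 was 11.95 and 12.17 (WT) and 11.14 and 11.19 (IkL/L) with DMSO, and 12.18 and 11.95 (WT) and 11.75 and 11.52 (IkL/L) with GSI. The mutant was lower under DMSO by a log2 difference of -0.90 (limma adjusted p = 0.0222), and under GSI the difference of -0.43 did not pass (adjusted p = 0.299). Dtx1, a direct Notch target, fell by 4.38 on the log2 scale under GSI on average (limma adjusted p = 1.601e-05). DN3 markers were present on every array: the mean over 10 measured markers lay between 10.90 and 11.42, with Il2ra, which encodes CD25, from 9.42 to 12.03 and Rag1 from 11.71 to 12.95. Markers of other cells were at lower means, of 6.65 to 8.15 for 11 stromal genes (6.03 to 7.70 without Thy1, which thymocytes express too) and 5.21 to 7.29 for 11 myeloid and dendritic genes. Single genes differed widely. Thy1 aside, the highest stromal values ran from 3.67 (Lum) to 10.65 (Col1a2). Those of the myeloid and dendritic genes ran from 3.27 (Itgam) to 10.64 (Lyz1). The DN3 marker Rag2 lay between 8.48 and 9.36, so some markers of other cells were as bright as some DN3 markers. How much RNA other cells gave was not tested. The arrays numbered 1 were above their replicates in the mean of the 11 stromal markers in every group, at 7.52 against 6.89 and 8.15 against 6.65 in WT with DMSO and GSI, and at 7.77 against 7.11 and 7.73 against 7.35 in IkL/L. The signal of GAPDH probes at the 3′ end over those at the 5′ end, a measure of RNA or labelling quality, was at a log2 difference of 1.71 and 2.12 (WT) and 1.87 and 2.47 (IkL/L) with DMSO, and 2.20 and 3.08 (WT) and 3.09 and 3.03 (IkL/L) with GSI, so it was larger in GSI than in DMSO arrays within each genotype.

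The probe sets chosen for the ribosomal protein genes differed little between GSI and DMSO as a group, most of them at signals close to the brightest of the arrays. The median of the 47 genes on an array lay between 13.40 and 13.56 on the log2 scale in all 8 arrays, and the median log2 difference between GSI and DMSO, averaged over both genotypes, was -0.02 (all genes -0.00). RMA had put the arrays on a common scale. A shift shared by most of the brightest probe sets may therefore not show in such medians, and this was not tested. Of the 47 genes 10 were called at a limma adjusted p below 0.05, 4 higher and 6 lower, which is 21.3% beside 23.3% of all genes tested (10.8% higher and 12.5% lower), and 36 lay within 1.2-fold. Without both WT arrays numbered 1 the count was again 10, 4 higher and 6 lower. Calls were as many in both subunits, 5 of 24 large and 5 of 23 small subunit genes. In bulk RNA of this kind a change in the cells present and a change of RNA per cell cannot be told apart.

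**Figure D1:**
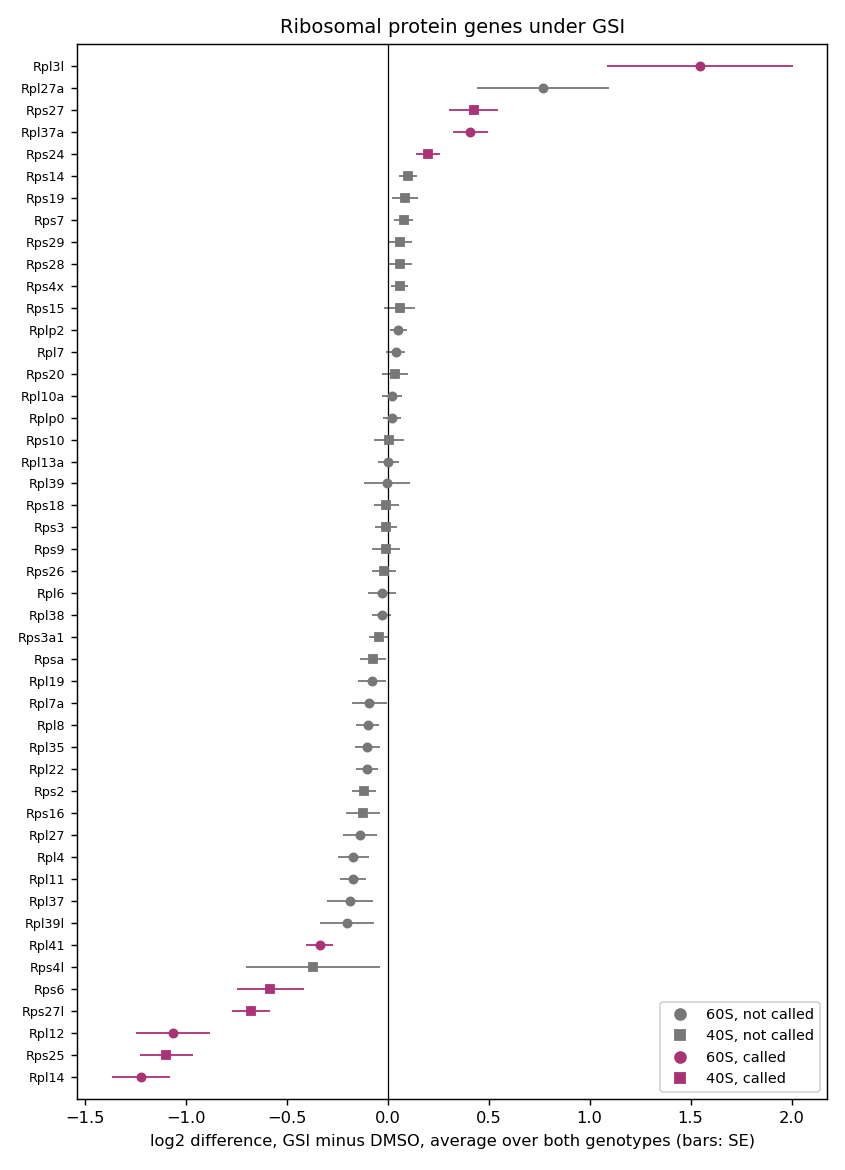
Log2 difference between GSI and DMSO, averaged over both genotypes, for each of the 47 ribosomal protein genes, ordered by value, with bars of the moderated standard error; circles are large (60S) and squares small (40S) subunit genes, and purple marks those called at a limma adjusted p below 0.05. The 36 genes within 1.2-fold crowd around 0, Rpl14 (-1.22), Rps25 (-1.10) and Rpl12 (-1.07) lie lowest and Rpl3l (1.55) highest.

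Small differences were the rule among the bright probe sets, and how far signals so near the top of an array can follow a change in RNA was not tested. Of the 47 genes 32 had a mean log2 signal above 13, close to the brightest probe set of any array (14.56 to 14.61). Of these 32 genes 3 were called (9.375%), against 33 of the 68 other genes above 13 (48.5%). The ribosomal protein genes were the brighter set, with a median signal of 13.77 against 13.19. The median size of the log2 difference was 0.06 in the 32 ribosomal protein genes and 0.22 in the 68 others. The median standard deviation between replicates was 0.0746 and 0.0866. Above 12, 3 of 34 ribosomal protein genes and 47.2% of all genes were called. Among the 13 ribosomal protein genes with a signal at or below 12, 7 were called, beside 22.8% of all such genes. That share pools 38.4% of the genes above 6 and up to 12 with 6.27% of those up to 6. Of the 7, only Rps27 and Rpl3l had a mean below 6, so 22.8% is a low yardstick for the rest. Signal here is a property of the probe set as well as of the RNA, so it does not rank the transcripts.

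Rplp0, the core of the acidic stalk that recruits elongation factors, is a common reference gene and varied little. It read 14.03 and 14.00 (WT) and 13.99 and 13.91 (IkL/L) with DMSO, and 13.99 and 13.96 (WT) and 14.03 and 14.04 (IkL/L) with GSI. The GSI arrays lay below the DMSO arrays in WT and above them in IkL/L, all 8 between 13.91 and 14.04, and the log2 difference for GSI was 0.02 (SE 0.04). Rplp2, which forms the outer stalk with Rplp1, had a log2 difference of 0.05 and ran from 13.86 to 13.95. Rpsa, the 40S protein also known as the laminin receptor, read 14.14 and 14.00 (WT) and 14.24 and 14.19 (IkL/L) with DMSO, and 14.14 and 13.92 (WT) and 14.05 and 14.17 (IkL/L) with GSI, with groups that overlapped in WT but not in IkL/L, and it was not called.

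The X-linked Rps4x had the brightest probe set of the list, with array values from 14.08 to 14.22. Its log2 difference for GSI was 0.06. Rpsa followed it, and Rps14, Rps3a1 and Rps2 came next at means of 14.09 each, and their log2 differences of 0.10, -0.04 and -0.12 did not pass. Rps14 and Rps2 lie in the platform and entry regions of the 40S subunit, and Rps3a1 near its exit for mRNA.

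Rpl22 and Rpl11 carry further roles in T cells and in the p53 response. Rpl22, the 60S protein needed by αβ T cell precursors in mice, read 13.87 and 13.85 (WT) and 13.82 and 13.83 (IkL/L) with DMSO, and 13.82 and 13.66 (WT) and 13.72 and 13.75 (IkL/L) with GSI. The GSI arrays of each genotype lay below its DMSO arrays, by 0.10 on the log2 scale on average, and the test was not passed. Rpl11, which with Rpl5 and 5S rRNA can bind and restrain Mdm2, read 13.03 and 13.05 (WT) and 12.93 and 12.85 (IkL/L) with DMSO, and 12.92 and 12.75 (WT) and 12.75 and 12.73 (IkL/L) with GSI. Its log2 difference of -0.17 (SE 0.07) was not called either.

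The 6 genes called lower under GSI were Rpl14, Rps25, Rpl12, Rps27l, Rps6 and Rpl41. Rpl14, a 60S protein on the solvent side, read 9.99 and 9.66 (WT) and 10.21 and 9.94 (IkL/L) with DMSO, and 8.99 and 8.72 (WT) and 8.51 and 8.69 (IkL/L) with GSI. Every GSI array was below every DMSO array, and the log2 difference was -1.22 (SE 0.14, limma adjusted p = 0.000853). Rps25, a 40S protein of the head that is needed for initiation at several viral internal entry sites, read 10.25 and 9.87 (WT) and 9.97 and 10.02 (IkL/L) with DMSO, and 9.02 and 9.20 (WT) and 8.70 and 8.80 (IkL/L) with GSI. Its groups did not overlap either, with a log2 difference of -1.10 (SE 0.13, limma adjusted p = 0.000898).

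Rpl12 sits at the base of the stalk and takes part in binding of elongation factors. The arrays read 8.31 and 8.40 (WT) and 8.28 and 8.51 (IkL/L) with DMSO, and 6.77 and 7.52 (WT) and 7.39 and 7.54 (IkL/L) with GSI. All GSI arrays were lower, WT GSI replicate 1 lowest, and the log2 difference was -1.07 (SE 0.18, limma adjusted p = 0.0042). Rps27l, a paralog of Rps27 that p53 induces, read 11.31 and 11.25 (WT) and 11.39 and 11.43 (IkL/L) with DMSO, and 10.80 and 10.61 (WT) and 10.58 and 10.69 (IkL/L) with GSI. The separation was complete, at a log2 difference of -0.68 (SE 0.09, limma adjusted p = 0.0017).

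Rps6, the 40S protein phosphorylated by S6 kinase, fell by less. Array values were 11.03 and 10.66 (WT) and 10.94 and 10.66 (IkL/L) with DMSO, and 10.59 and 10.06 (WT) and 10.00 and 10.32 (IkL/L) with GSI. All DMSO arrays were above all GSI arrays, but the highest GSI array (10.59) was close to the lowest DMSO array (10.66). The log2 difference was -0.58 (SE 0.16, limma adjusted p = 0.0359), and with the GAPDH 3′ to 5′ difference as a covariate, an alternative added after the data were seen, it was -0.09 (adjusted p = 0.787). Its call was also lost, at limma adjusted p-values of 0.0601 to 0.14, without WT DMSO replicate 1, WT GSI replicate 2 or any single IkL/L array. Rpl41, the smallest ribosomal protein, read 13.93 and 13.88 (WT) and 14.00 and 13.89 (IkL/L) with DMSO, and 13.72 and 13.47 (WT) and 13.58 and 13.57 (IkL/L) with GSI. It was the only bright gene called lower, with a log2 difference of -0.34 (SE 0.07, limma adjusted p = 0.0077) that became -0.15 (adjusted p = 0.246) with the same covariate.

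**Figure D2:**
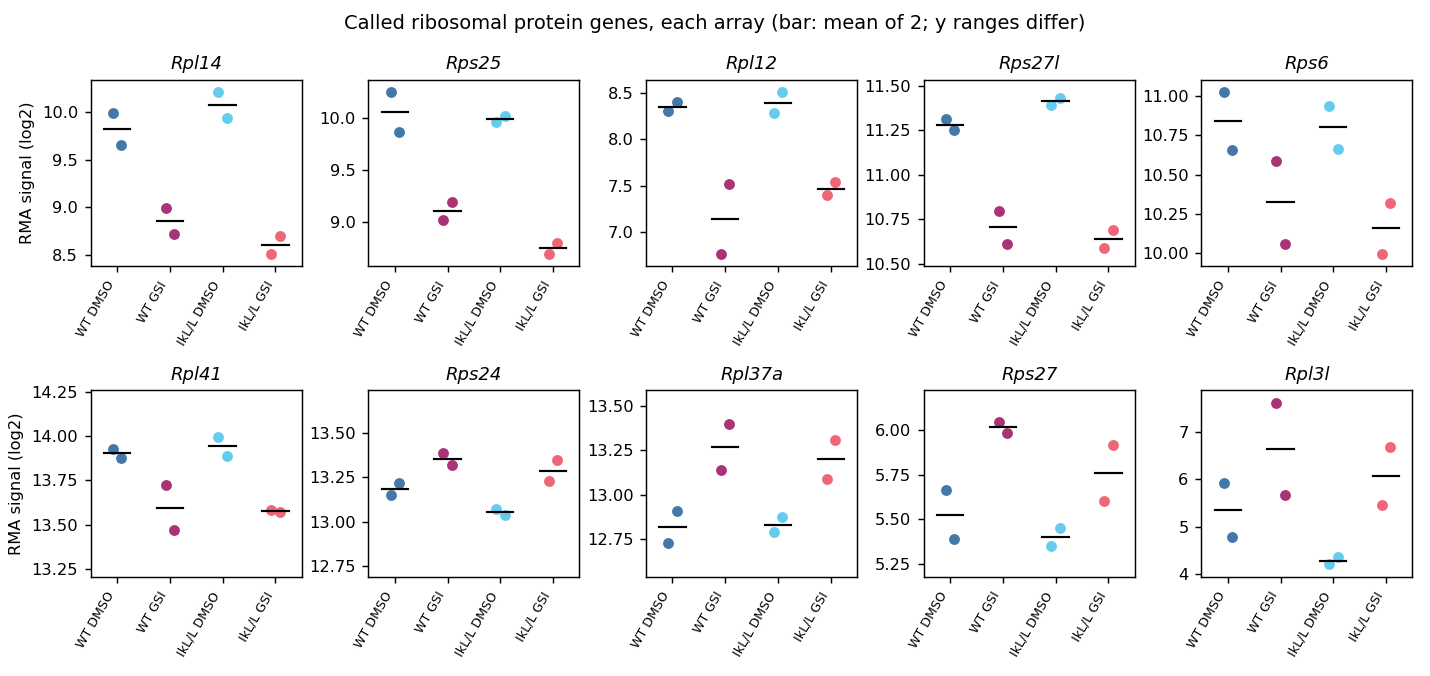
RMA log2 signal on each of the 8 arrays for the 10 ribosomal protein genes called between GSI and DMSO, with WT before IkL/L and DMSO before GSI within each genotype, and a bar at the mean of 2 arrays; the vertical ranges differ between genes. Within each genotype the GSI arrays lie on a single side of the DMSO arrays, except for Rpl3l in WT, where they overlap.

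Higher under GSI were Rpl37a, Rps27, Rps24 and Rpl3l. Rpl37a, a zinc finger protein of the 60S subunit, read 12.73 and 12.91 (WT) and 12.79 and 12.88 (IkL/L) with DMSO, and 13.14 and 13.40 (WT) and 13.09 and 13.31 (IkL/L) with GSI. The groups did not overlap, and the log2 difference was 0.41 (SE 0.09, limma adjusted p = 0.0113). Without IkL/L DMSO replicate 1 it was 0.39 (adjusted p = 0.0527). The direction rests on that probe set: another probe set of Rpl37a with a mean of 12.12 had a log2 difference of -0.19 that did not pass. The mean over all probe sets of the gene gave -0.07 (adjusted p = 0.698).

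Rps27, a zinc finger protein of the 40S subunit, was represented by a dim probe set. It read 5.66 and 5.39 (WT) and 5.35 and 5.45 (IkL/L) with DMSO, and 6.05 and 5.98 (WT) and 5.60 and 5.92 (IkL/L) with GSI, and its log2 difference was 0.42 (SE 0.12, limma adjusted p = 0.0356). GSI and DMSO arrays were separate within each genotype but not across them. The call was lost, at adjusted p-values of 0.056 to 0.13, without any single array but WT DMSO replicate 1 and IkL/L GSI replicate 1. A bright probe set annotated with both Rps27 and Rps27rt moved the same way, from 12.79, 13.05, 12.91 and 13.08 in the DMSO arrays to 13.32, 13.62, 13.28 and 13.49 in the GSI arrays. Its log2 difference was 0.47 (SE 0.10, limma adjusted p = 0.02 over all probe sets). Rps27 and its paralog Rps27l thus moved in opposite directions, Rps27l being lower on all 3 of its probe sets (log2 differences -0.87, -0.81 and -0.68).

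Rps24, a 40S protein mutated in some patients with Diamond-Blackfan anaemia, read 13.15 and 13.22 (WT) and 13.07 and 13.04 (IkL/L) with DMSO, and 13.39 and 13.32 (WT) and 13.23 and 13.35 (IkL/L) with GSI. The highest DMSO array (13.22) and the lowest GSI array (13.23) nearly met, and the log2 difference was 0.20 (SE 0.06, limma adjusted p = 0.0391). That call was lost, at adjusted p-values of 0.0704 to 0.131, without any single array but WT GSI replicate 2 and IkL/L GSI replicate 1, and the dim probe set of Rps24 used when those ending in _x_at or _s_at were left out was at -0.0064. Rpl3l, the striated muscle paralog of Rpl3, was dim and varied most of all 47 genes: 5.91 and 4.78 (WT) and 4.20 and 4.35 (IkL/L) with DMSO, and 7.62 and 5.67 (WT) and 5.46 and 6.69 (IkL/L) with GSI. Groups overlapped in WT, where the first DMSO array exceeded the second GSI array, and the log2 difference of 1.55 (SE 0.46, limma adjusted p = 0.0437) lost its call without any of 5 single arrays (WT DMSO replicate 2, WT GSI replicate 1, either IkL/L DMSO array or IkL/L GSI replicate 2), at adjusted p-values of 0.063 to 0.158.

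Some genes with wide spread did not pass. Rpl27a, a 60S protein, read 8.73 and 9.19 (WT) and 9.10 and 9.18 (IkL/L) with DMSO, and 8.97 and 10.65 (WT) and 9.69 and 9.96 (IkL/L) with GSI, the second WT GSI array standing far above the first. The log2 difference of 0.77 was not called. Among the paralogs, Rpl39l, known from testis, ran from 5.25 to 5.83 and its parent Rpl39 from 6.65 to 6.83, and neither was called. Rps4l, an autosomal relative of Rps4x that RefSeq now lists as a transcribed pseudogene, had replicates as far apart as 5.93 and 4.62 in WT with DMSO and was not called.

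Few of the remaining genes moved by much, and none passed. Among large subunit genes these were Rpl4, Rpl6, Rpl7, Rpl7a, Rpl8, Rpl10a, Rpl13a, Rpl19, Rpl27, Rpl35, Rpl37 and Rpl38, with log2 differences from -0.19 (Rpl37) to 0.04 (Rpl7). Among small subunit genes they were Rps3, Rps7, Rps9, Rps10, Rps15, Rps16, Rps18, Rps19, Rps20, Rps26, Rps28 and Rps29, from -0.12 (Rps16) to 0.08 (Rps19). Rps19, the gene most often mutated in Diamond-Blackfan anaemia, had a log2 difference of 0.08 (SE 0.06).

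In WT cells alone 4 of the 47 genes were called, all lower (8.51%, beside 6.47% of all genes in either direction and 4.16% lower). They were Rpl12 (log2 difference -1.21, limma adjusted p = 0.0332), Rpl14 (-0.97, 0.0321), Rps25 (-0.95, 0.0265) and Rps27l (-0.58, 0.0422). These WT calls were narrow: none of the 47 genes was called when either WT DMSO array or any single IkL/L array was left out, or when only the WT arrays were fitted, while the log2 differences of the 4 genes kept their sign. Without both WT arrays numbered 1 the count was 1, a gene that was higher, in a fit with 1 array in each WT group that takes its spread from the IkL/L arrays alone. In IkL/L cells 6 genes were called, all lower (12.8%, beside 16.8% of all genes in either direction and 9.09% lower). Rpl14 fell by 1.48, Rps25 by 1.24, Rpl12 by 0.92, Rps27l by 0.78, Rps16 by 0.42 and Rpl41 by 0.37 on the log2 scale, with limma adjusted p-values from 0.0028 to 0.0485. Rpl14 and Rps25 passed without each array in turn. The count was 2 without either IkL/L DMSO array, 3 without either IkL/L GSI array, and 9 or 10 without WT GSI replicate 1 or 2.

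Rps16 in that list was measured near the floor of the arrays. In the mutant its probe set read 3.41 and 3.39 with DMSO and 3.05 and 2.91 with GSI, while in WT the GSI arrays (3.30 and 3.19) overlapped the DMSO arrays (3.24 and 2.91). A probe set annotated with Rps16 and related loci lay between 13.89 and 14.01 on all arrays, with a log2 difference of 0.02. No ribosomal protein gene was called for the difference between the genotypes in the response to GSI (interaction), where limma called 8 genes in all (0.044%). At an unadjusted p below 0.05 there was 1 of 47, Rps16, with a log2 interaction of -0.59 (limma adjusted p = 0.621), and next by p came Rpl37 (-0.47, adjusted p = 0.855), Rpl14 (-0.50, 0.869) and Rpl38 (-0.16, 0.87).

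Genotype itself moved none of the 47 genes past the threshold. Under DMSO limma called 0 of 47 between IkL/L and WT beside 1.74% of all genes, with 2 at an unadjusted p below 0.05, Rps16 (0.33, adjusted p = 0.361) and Rps3a1 (-0.17, 0.448). Rps9 (-0.20) and Rpl11 (-0.15) came next by p, and their IkL/L DMSO arrays lay below both WT DMSO arrays. Under GSI limma called 0 of 47 beside 1.46% of all genes. Here 3 had an unadjusted p below 0.05, namely Rps15 (-0.28, adjusted p = 0.389), Rpl38 (-0.16, 0.427) and Rpl37 (-0.39, 0.44), and Rps16 (-0.27, 0.488) was next.

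Rpl37 and Rpl38, both of the 60S subunit, were lower in IkL/L GSI than in each of the other groups, without passing. Rpl37 read 9.25 and 9.18 (WT) and 9.30 and 9.29 (IkL/L) with DMSO, and 9.20 and 9.32 (WT) and 8.91 and 8.84 (IkL/L) with GSI. Rpl38, which in mice is needed for translation of a set of Hox mRNAs, read 13.62 and 13.63 (WT) and 13.60 and 13.66 (IkL/L) with DMSO, and 13.68 and 13.68 (WT) and 13.51 and 13.51 (IkL/L) with GSI. Myeloid and dendritic markers also moved most in that group: 7 of 11 were called higher in IkL/L GSI than in WT GSI, and the mean over the 11 was 7.23 and 7.29 there against 5.82 and 6.03 in WT GSI. Among these markers the highest value on any array ran from 3.27 (Itgam) to 10.64 (Lyz1). Their part in the result was not tested.

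The same genes were often read by other probe sets, which were described over all 45037 probe sets that are no controls. In all, 211 probe sets name a gene of the pattern, 101 of them the 47 genes alone and 110 several genes, mostly a ribosomal protein gene and its processed pseudogenes. Over these, 29 more protein-coding genes such as Rpl3, Rpl5 and Rps13 come into view. Over the 211, 4 were called higher and 28 lower on average over the genotypes, beside 6.0% and 8.7% of all probe sets (14.7% together). In WT 0 were called higher and 4 lower, beside 0.397% and 1.18%, and in IkL/L 1 and 13, beside 4.12% and 5.57%. Of 133 probe sets with a mean above 12, 3 were called higher and 6 lower in the average, at a median log2 difference of -0.01. Over all 653 probe sets of that brightness 12.9% were higher and 25.1% lower.

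Dimmer probe sets of these genes leaned downward. Of 52 with a mean from 6 to 12, 1 was called higher and 16 lower, and 46 had a log2 difference below 0, with a median of -0.28. Over all 18255 probe sets of that class 11.1% were higher and 16.6% lower, with a median of 0.03 and 48.2% below 0. Of the 26 at or below 6, 0 were called higher and 6 lower, beside 2.25% and 2.76% of all 26129. The probe set called higher in the middle class is annotated with both Rpl13 and Tax1bp3 and had a log2 difference of 1.17 (SE 0.19).

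**Figure D3:**
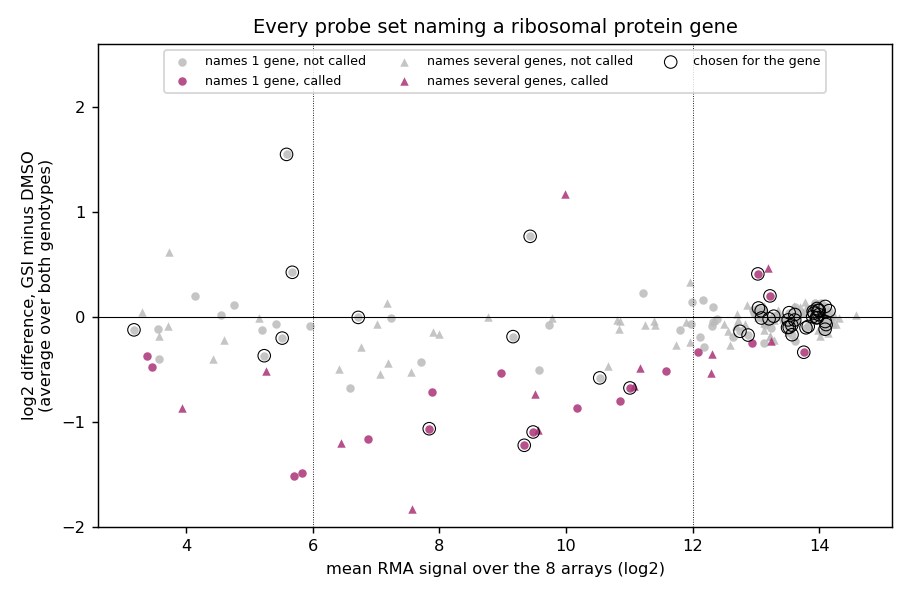
Each of the 211 probe sets that name a ribosomal protein gene, by its mean RMA log2 signal over the 8 arrays and its log2 difference between GSI and DMSO averaged over both genotypes; triangles name several genes, purple marks a limma adjusted p below 0.05 over all 45037 probe sets, dotted lines stand at signals of 6 and 12, and rings mark the 47 probe sets chosen for a gene. Above 12 the points lie close to 0 (median -0.01), while from 6 to 12 they reach -1.83 and 46 of 52 lie below 0; Rps6, Rps27 and Rpl3l, called among 18193 genes, do not pass among all probe sets and are drawn grey.

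Probe sets of a single gene disagreed in the same way, those that also name an unrelated gene left aside. In 31 genes with a probe set above 12 and another from 6 to 12, the dimmer had the more negative median log2 difference in 28 (90.3%), with a median gap of -0.35. Among 257 other genes with both kinds it was so in 197 (76.7%), with a median gap of -0.22. For the 257 only probe sets naming a single gene were used, while the 31 include probe sets naming several genes. The shares of the 31 and the 257 given here are therefore not like for like. The exceptions were Rpl22, Rpl27a and Rps7. A dimmer probe set was called lower in 11 of the 31 genes (35.5%), beside 97 of the 257 others (37.7%). In 9 of the 11 no bright probe set was called lower, Rpl14 and Rpl41 being the exceptions, beside 33 of the 97.

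Rpl3, which shapes the peptidyl transferase centre, showed the widest gap; it and the following examples were chosen after their values were seen. Its dimmer probe set, shared with predicted loci, read 8.65 and 8.44 (WT) and 8.67 and 8.21 (IkL/L) with DMSO, and 7.08 and 6.63 (WT) and 6.69 and 6.22 (IkL/L) with GSI. The log2 difference was -1.83 (SE 0.20, limma adjusted p = 0.0022). The bright probe set of Rpl3 read 14.12 and 14.13, 14.00 and 13.90, 14.13 and 14.08, and 14.03 and 13.99 in the same order, at -0.13 (SE 0.04, adjusted p = 0.0549).

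Rpl5, the partner of Rpl11 in the 5S particle, had a probe set at 10.35 and 9.98 (WT) and 10.10 and 9.93 (IkL/L) with DMSO, and 9.27 and 8.77 (WT) and 9.10 and 8.89 (IkL/L) with GSI. It fell by 1.08 on the log2 scale (SE 0.17, limma adjusted p = 0.0065), whereas the bright probe set of Rpl5 stayed between 14.17 and 14.22 on all arrays. For Rps20, a 40S protein of the head, a dim probe set read 6.97 and 6.30 (WT) and 6.55 and 6.05 (IkL/L) with DMSO, and 5.48 and 4.73 (WT) and 5.06 and 4.53 (IkL/L) with GSI. That is a log2 difference of -1.52 (SE 0.25), beside 0.04 for the bright probe set chosen for Rps20, which ran from 13.82 to 14.09.

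The 3 genes called lowest above showed the same divide. For Rps25 a bright probe set shared with predicted loci had a log2 difference of -0.13 (SE 0.05, limma adjusted p = 0.122), against -1.10 for the chosen one. For Rpl12, both shared bright probe sets were at -0.08 and -0.05, against -1.07. For Rpl14, all 5 shared bright probe sets had negative log2 differences, from -0.53 to -0.14, and 2 of them were called. The one that fell most ran from 12.42 to 12.67 in the DMSO arrays and from 11.93 to 12.11 in the GSI arrays. For Rps6, the brightest shared probe set stayed between 14.27 and 14.35, with a log2 difference of -0.01 against -0.58. The size of the fall thus differed between probe sets of the same gene, and which transcripts or pseudogenes each reads was not tested.

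**Figure D4:**
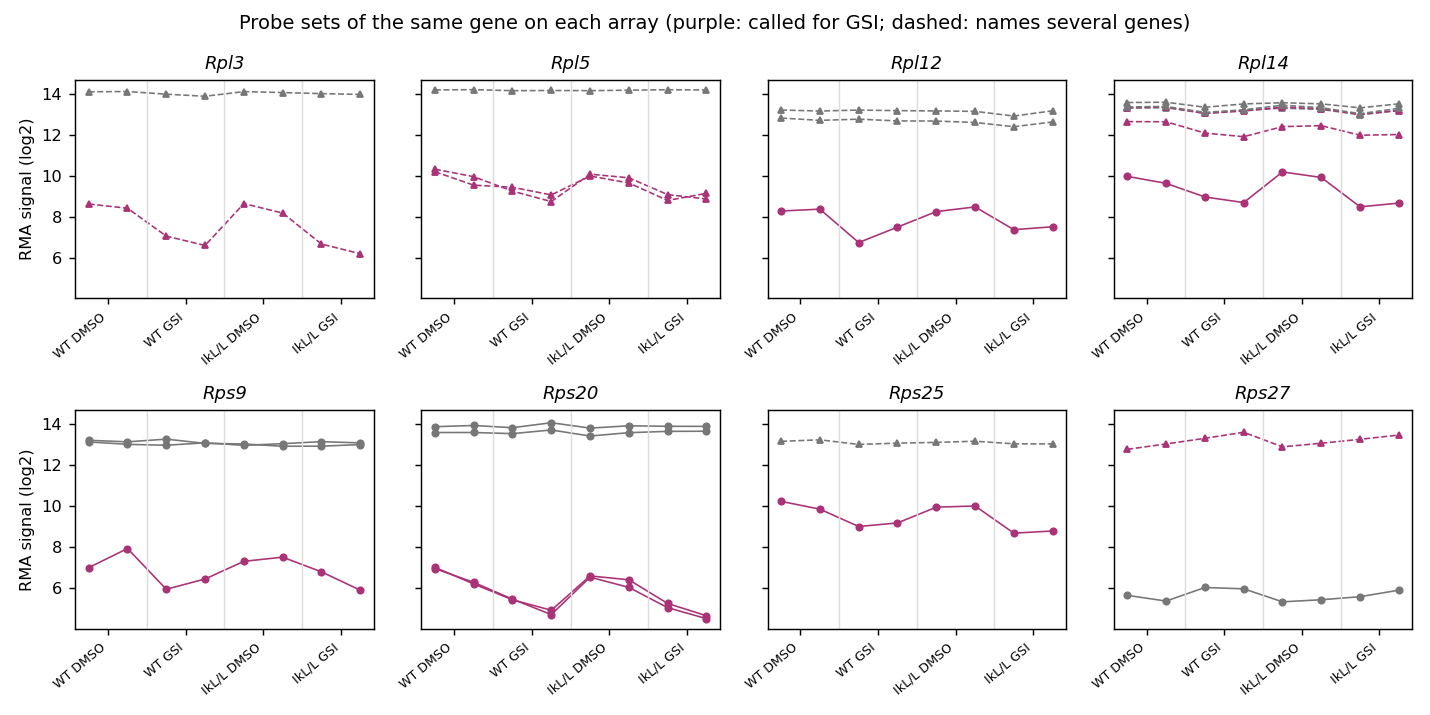
RMA log2 signal of every probe set that reads Rpl3, Rpl5, Rpl12, Rpl14, Rps9, Rps20, Rps25 or Rps27, on the 8 arrays with WT before IkL/L and DMSO before GSI within each genotype (lines only joining the arrays of a probe set); dashed lines name several genes and purple marks a limma adjusted p below 0.05 between GSI and DMSO over all probe sets. Most bright probe sets run nearly level while a dimmer one of the same gene lies lower in both GSI groups; the exceptions are Rpl14, of whose 5 bright probe sets 2 are called lower (-0.53 and -0.23), and Rps27, whose bright probe set is higher by 0.47.

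The GAPDH 3′ to 5′ difference moved with GSI, as given above, and was set beside these calls. With it as a covariate 5 of the 47 genes were called in place of 10, and Rpl14 (-0.88), Rps25 (-1.11), Rpl12 (-1.57), Rps27l (-0.57) and Rpl3l (2.87) were the ones that passed. Rps27 (0.50) and Rps24 (0.24) did not pass although their log2 differences were no smaller than without it, and Rpl37a was at 0.20. With the mean stromal marker level of each array as a covariate all 10 passed, among 13 in all, with Rpl14 at -1.26, Rps25 at -1.09 and Rps27l at -0.69, and the count was 13 with Thy1 left out of that mean. Stromal markers were called in 0 of 11 and myeloid and dendritic markers as higher in 7 of 11 between GSI and DMSO, and the part of the latter was not tested.

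Many genes that serve the ribosomal proteins were lower under GSI. The lists below were chosen with earlier results of these data known, so their counts are no independent evidence. They are to be read beside the 12.5% of all genes that were called lower and the 10.8% called higher, or 20.9% and 17.4% of the 9173 genes with a signal from 6 to 12. Of 9 carriers and dedicated chaperones, which escort newly made ribosomal proteins to the nucleolus, 8 fell and 0 rose, with a median log2 difference of -1.14. The importin Ipo5 was at -2.12 (SE 0.22), the uL3 chaperone Grwd1 at -2.01 (SE 0.26) and Heatr3, which escorts uL18, at -1.45 (SE 0.19). Among 13 late maturation and export factors 8 fell and 0 rose (median -0.78), with the 40S assembly factors Pno1 at -2.11, Bysl at -1.96 and Ltv1 at -1.59.

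Factors that use the ribosome also fell in part. Of 12 measured genes on a list of initiation factors from the eIF1, eIF2, eIF4 and eIF5 families 9 fell and 0 rose (median -0.76, beside 12.5% of all genes lower), led by Eif2b3, a subunit of the eIF2 exchange factor, at -1.65, Eif1ax at -1.25 and Eif1a at -1.12. That list does not hold every member of these families. Eif4e, which fell, and Eif4b, which was at -0.05 and did not pass, stood in other lists. Among 13 regulators of TOP mRNA translation 6 fell and 1 rose (median -0.33). The cap-binding protein Eif4e was at -1.29, the TOP-binding protein Larp1 at -0.85 (SE 0.11, limma adjusted p = 0.0013) and Larp4 at -0.83, while Rptor, the mTORC1 scaffold, was at 0.61. Mtor itself, at 0.12, did not pass.

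A mixed list of other TOP mRNAs and translation factors was between these, and which of its genes carry the TOP motif was not looked at. Of 20 other TOP mRNAs and translation factors 6 fell, 1 rose and 13 did not pass (median -0.08). Eef1d, a subunit of the exchange factor for eEF1A, was at -0.85, Eif3m at -0.68 and the histone chaperone Nap1l1, counted also among the carriers, at -0.65. Eif3f, another eIF3 subunit, was the gene that rose, at 0.31. The bright TOP genes Eef1a1 (-0.11) and Tpt1 (0.02) did not pass. Of 3 measured genes of ribosomal proteins or their relatives with names outside the pattern, Rpl7l1 (-0.63) and Rpl22l1 (-0.26, limma adjusted p = 0.0344) fell and Fau (-0.01) did not pass. The Rpl22 paralog was thus called where Rpl22 was not, a difference that was itself not tested. Some genes of these lists were not analysed here. In none of the lists was a gene called for the interaction or for either comparison of the genotypes.

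**Figure D5:**
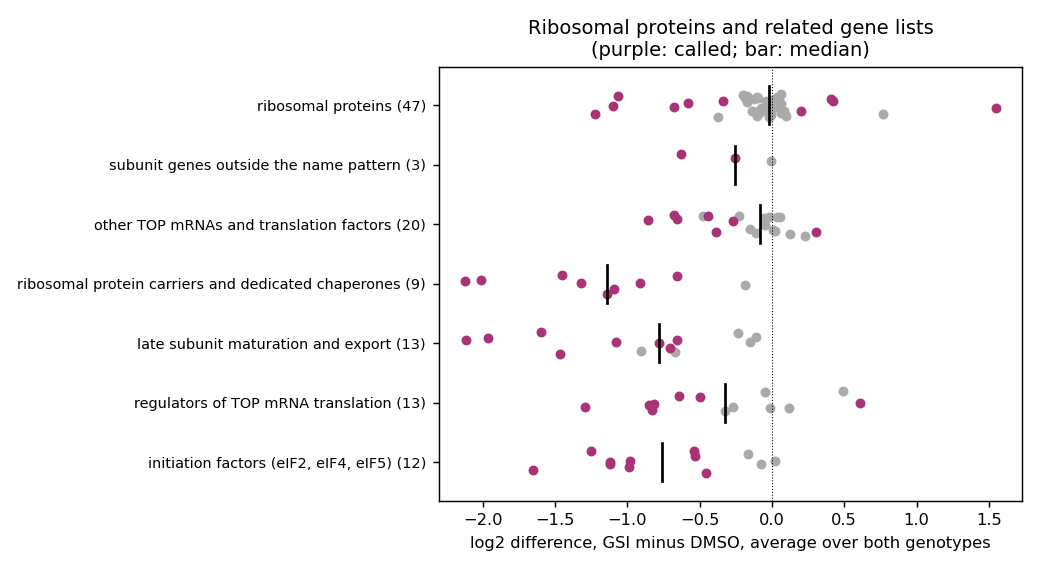
Log2 difference between GSI and DMSO, averaged over both genotypes, for the 47 ribosomal protein genes and for related gene lists (number of measured genes in parentheses), each point a gene, purple for a limma adjusted p below 0.05, with a bar at the median. The medians run from -0.02 for the ribosomal proteins to -1.14 for their carriers and chaperones.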

How the data were processed

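The deposited values are log2 signals per probe set of 8 Affymetrix mouse arrays, made by the authors with RMA, per the submitters' processing notes (version not given in the sources used here), from RNA labelled in a 2-cycle protocol, per the labels. They were used unchanged. Left out of the 45101 probe sets were 64 controls, 932 that name several genes and 9160 without a listed gene, and the brightest remaining probe set stood for each of 18193 genes.

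A linear model with 4 group terms was fitted to all arrays with limma 3.58.1 under R 4.3.3, using eBayes and its trend option, which left 4 residual and added 4.11 prior degrees of freedom. It gave the response to GSI in each genotype, the average and the difference (interaction) of these responses, and the difference of the genotypes in each treatment. Calls were two-sided, at a Benjamini-Hochberg adjusted p below 0.05 over all genes. Probe sets that name several genes come from a second fit, over 45037 probe sets. The number of arrays limits the precision.

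Members and lists were chosen with earlier results of these data known. Named were, per contrast, up to 8 called members a direction (or the next by p up to 4), the 5 brightest and 5 dimmest, the 4 most variable, and Rplp0, Rpsa, Rps6, Rps27, Rps27a, Rpl5, Rpl11, Rpl22 and paralogs, and up to 3 called genes of each list. Other names were chosen after their values were seen. Alternatives were a replicate block, other choices of probe set, filter, scaling and fit, a minimum of 1.5-fold, and the omission of each array. In a simulation of the average contrast over 18193 genes, 75 of 100 genes with a log2 change of 1 and 96 of 100 with a change of 2 were recovered, beside 14 false calls. At a log2 change of 1, 37 of 100 were recovered for the response in WT and 60 in IkL/L. For the interaction it was 15 of 100, and for the genotypes 53 under DMSO and 51 under GSI, so many such changes would be missed there. Replicate numbers were not taken to pair samples, since the labels do not say that they do. Deviations from group means correlated at 0.80, 0.68 and 0.64 among WT DMSO, WT GSI and IkL/L DMSO. Between these groups and IkL/L GSI the correlations were -0.15, -0.03 and -0.06. Arrays of the same number in the first 3 groups thus shared deviations, for which neither the main fit nor the simulation has a term. Tables and plots were made in Python 3.11.15 with pandas 2.3.3, numpy 2.4.6 and matplotlib 3.10.9.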

Additional observations from a re-analysis of the deposited data

How the results depend on the processing

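On average over both genotypes 10 of 47 genes were called. With every single-gene probe set counted the number was 22 of 101, with a 1.5-fold minimum 5, with the GAPDH covariate 5, and without single arrays 5 to 10 (5 without IkL/L DMSO replicate 1, 6 without IkL/L DMSO replicate 2 or IkL/L GSI replicate 2). In WT the main count of 4 became 0 with only the arrays compared, 9 with the stromal covariate, with or without Thy1, 1 when both WT arrays numbered 1 were dropped and 0 to 5 without single arrays. In IkL/L the main count of 6 became 10 with every single-gene probe set, with only the arrays compared and when both WT arrays numbered 1 were dropped, 11 with either stromal covariate and 2 to 10 without single arrays. The interaction and both genotype comparisons called 0 in every setting run. Reversed were Rpl37a, at -0.0722 as a mean over probe sets and -0.192 without probe sets ending in _x_at or _s_at, and Rps24, at -0.0064 without those. Rpl14, Rps25, Rpl12 and Rps27l kept their average call in all 21 settings, while of the 20 calls followed over all contrasts 6 did so. Rpl14, Rps25 and Rpl12 have 1 single-gene probe set each, so settings that change the choice of probe set could not alter their log2 differences. Probe sets naming several genes, among them the bright ones of these genes given above, entered none of the 21 settings. The replicate number as a replicate block gave 11 calls on average, 5 in WT and 7 in IkL/L, and 0 in the other contrasts, and the numbers were not shown to pair the samples. The arms of 1 array in the fit without both WT arrays numbered 1 are assumed to vary like the IkL/L arrays. The covariates, that fit and the one over all probe sets were chosen after seeing the data. The cause of these shifts was not tested.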
